A study of Mus musculus with 6 samples.

Results

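The S100 genes described here are the alarmins S100a8 and S100a9, the epidermal S100a7a, and S100a3, S100a4, S100a6, S100a11, S100a14 and S100a16, which are known from epithelium, hair or stroma. They were picked by symbol, and all 9 were found among the 48709 genes of the count table. RNA was sequenced from gingiva, the mucosa around the teeth, of mice that lack Plg (Plg KO, 3 libraries) and of wild-type littermates (Plg WT, 3 libraries). All mice were C57BL/6 and 12 weeks old, and none is labelled as having had a treatment. Plg encodes plasminogen, the precursor of the fibrin-dissolving protease plasmin. The sources used here give neither the kind of Plg allele nor the sex of the mice. By its title, the study concerns the control of neutrophils by fibrin in mucosa. No label states that each library is a separate mouse, so the p-values rest on library-to-library spread that may be technical.

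S100 proteins are small calcium-binding proteins with EF-hand loops that mostly work as dimers. S100a8 and S100a9 pair to form calprotectin, which fills the cytosol of neutrophils, is also made by stressed keratinocytes, and starves microbes of zinc and manganese. Released from cells, calprotectin acts as an alarmin on the receptors Tlr4 and Ager, and in gingiva it is a common marker of inflammation. Most other S100 proteins stay inside cells, where they bind annexins and cytoskeletal proteins in a calcium-dependent way.

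S100a8 (ENSMUSG00000056054, GRCm38 chromosome 3, 90668978 to 90670035, plus strand) and S100a9 (ENSMUSG00000056071, chromosome 3, 90692632 to 90695721, minus strand) are neighbours on opposite strands. Their promoters are shown because these are the 2 members whose libraries separate by genotype. Each window runs from 250 bases before to 50 bases after the gene's RefSeq start on GRCm38.p6, and is written 5′ to 3′ on the gene's own strand. For S100a8 this start lies downstream of the first base of the gene span given above, which comes from GENCODE. Positions below are counted from the RefSeq start. Capitals mark TATAAA and the C/EBP consensus TTNNGNAA on either strand, C/EBP factors being known activators of both genes.
S100a8, chr3:90668821-90669120: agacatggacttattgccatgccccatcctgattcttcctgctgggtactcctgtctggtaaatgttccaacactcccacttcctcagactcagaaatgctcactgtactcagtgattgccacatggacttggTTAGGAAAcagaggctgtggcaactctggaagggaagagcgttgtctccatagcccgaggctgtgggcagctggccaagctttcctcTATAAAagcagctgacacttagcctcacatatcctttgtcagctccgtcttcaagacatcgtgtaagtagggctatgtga
S100a9, chr3:90695672-90695971: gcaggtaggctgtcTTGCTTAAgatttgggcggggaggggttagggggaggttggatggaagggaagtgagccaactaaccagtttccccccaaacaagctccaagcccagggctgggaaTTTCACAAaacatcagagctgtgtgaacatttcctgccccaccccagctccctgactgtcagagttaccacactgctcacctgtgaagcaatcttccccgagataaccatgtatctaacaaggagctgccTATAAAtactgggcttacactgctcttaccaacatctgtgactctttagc
The S100a8 window holds 1 match to the C/EBP consensus, with its first base at position -117 from the RefSeq start, and 1 TATAAA at -30. The S100a9 window holds 2 C/EBP matches, at -236 and -130 on the opposite strand, and 1 TATAAA at position 1, the annotated start itself. Such matches are common, since 40.7% of the 32851 promoter windows in the table hold TTNNGNAA and 13.6% hold TATAAA. Of the 8 members with a window, TTNNGNAA occurred in 3, S100a8, S100a9 and S100a3, and TATAAA in 4, these 3 and S100a4. S100a3 had 4 windows and S100a16 had 2, so counts by gene are not like for like with the shares by window. In S100a3 TTNNGNAA and TATAAA lay in different windows. The other motifs searched on both strands were TTCNNNGAA (STAT, in 8.3% of all windows), GAGGAA (ETS, 28.3%), TGANTCA (AP-1, 7.81%) and ACGTG (hypoxia response, 19.6%). Of these, S100a8 held GAGGAA on the opposite strand at -170 and -36, S100a9 held none, and no match overlapped another in either window. S100a14 had no window in the table.

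Plg, which the liver makes, had 2, 0 and 0 counts in Plg KO 1, 2 and 3 and 0, 0 and 2 in Plg WT 1, 2 and 3, so its transcript cannot check the genotype labels here. Sequencing gave 26183389 to 36429150 counts per library in Plg KO and 28184139 to 36006829 in Plg WT, and levels are given as CPM, counts scaled to a common library total. The upper limit for a gene with no count, set at 3 counts, was 0.0824 to 0.115 CPM. Such limits cover counting error only. The tissue label was borne out by epithelial transcripts, with summed CPM of 7 basal keratinocyte markers at 16060 to 18780 in Plg KO and 17830 to 19510 in Plg WT. Salivary gland and skeletal muscle transcripts were present as well and varied between libraries. The 11 salivary gland markers summed to 746.3, 900.6 and 1254 CPM in Plg KO 1, 2 and 3, and to 1243, 248 and 277 CPM in Plg WT 1, 2 and 3. The 6 muscle markers summed to 2334, 9053 and 10810 CPM in Plg KO and to 10290, 5450 and 6612 CPM in Plg WT.

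Most of the 9 genes were abundant in gingiva, and their levels spanned a wide range. To compare genes, CPM was divided by the exon length of each gene in GENCODE M21. On this scale S100a16, an epithelial S100 protein, had the highest mean, with 429 CPM per kb in Plg KO and 455 in Plg WT. S100a14, which is also epithelial, averaged 311 CPM per kb in Plg KO and 310.5 in Plg WT, and S100a11, a partner of annexin A1, had 314 in Plg KO and 269.7 in Plg WT. S100a6, known as calcyclin, averaged 168 CPM per kb in Plg KO and 165 in Plg WT. S100a7a, a mouse relative of human psoriasin, averaged 98.8 CPM per kb in Plg KO and 89.6 in Plg WT. By mean CPM per kb over all libraries these 5 genes, S100a8 and S100a9 exceeded 96.4% to 99.3% of the 17717 tested genes with an exon length. The ranges of S100a14 and S100a11 overlapped in Plg KO, and in Plg WT the sole neighbours in the order to overlap were S100a9 and S100a8.

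By group means, calprotectin took a different place in this order in each genotype. In Plg KO, S100a9 averaged 267.6 CPM per kb and S100a8 averaged 180.0, and the ranges of both overlapped those of S100a6 and S100a11. The range of S100a8 also held that of S100a7a. In Plg KO 3, S100a8 had 71.8 CPM per kb, below S100a7a at 92.8. In Plg WT they averaged 49.4 and 29.2 CPM per kb, and every Plg WT library had less of either gene than of S100a7a. S100a4, known from fibroblasts and leukocytes, and S100a3, known from hair cuticle, were far below the rest. S100a4 had 4.83 CPM per kb in Plg KO and 5.89 in Plg WT, and S100a3 had 0.675 in Plg KO and 0.728 in Plg WT. The order of these genes depended on the length used, as S100a3 has 5660 exon bases and S100a4 has 584. In CPM S100a3 was the higher, at 3.82 in Plg KO and 4.12 in Plg WT, against 2.82 and 3.44 for S100a4.

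**Figure D1:**
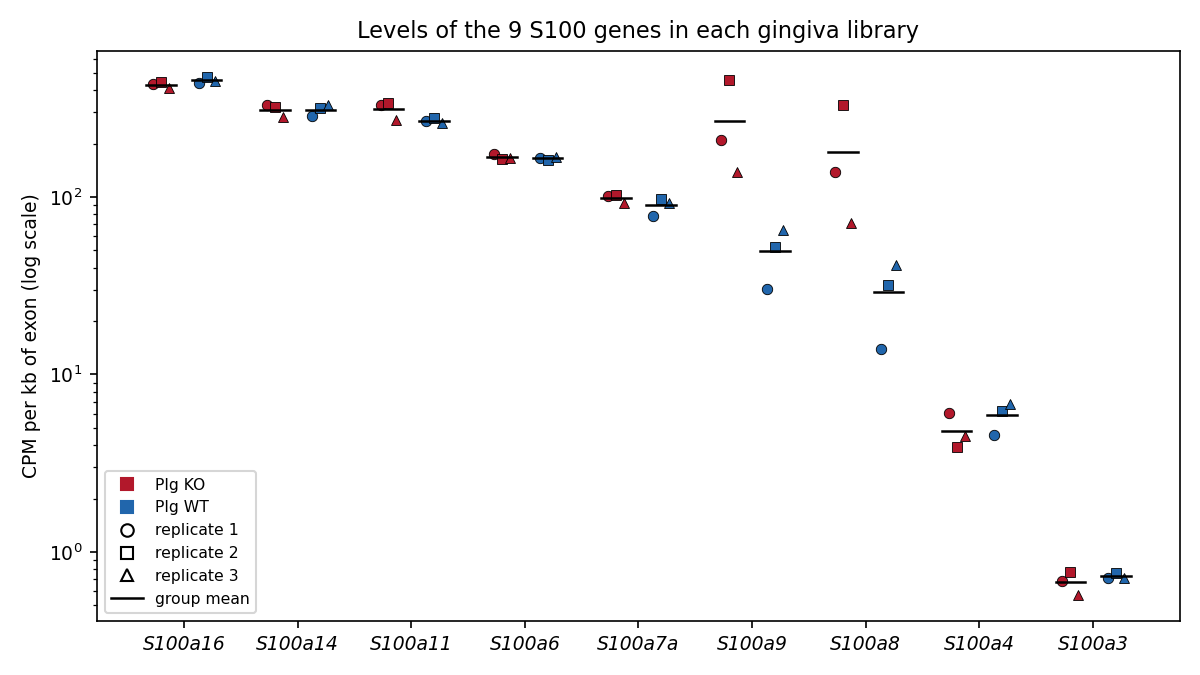
Levels of the 9 S100 genes as CPM per kb of exon, on a log axis, for each Plg KO (red) and Plg WT (blue) library, with the replicate as the symbol and the group mean as a line. S100a8 and S100a9 are the genes whose red points lie all above the blue ones, and the points of S100a6 nearly coincide.

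S100a8 and S100a9 had the largest differences of the 9 genes, and whether they were called depended on the test. None of the 9 was called by edgeR at an adjusted p under 0.05, where 0.237% of all 17757 tested genes were called. DESeq2 called 2, S100a8 and S100a9, against 2.04% of all genes it tested. Without a filter edgeR called the same 2, against 0.51% of all genes, and limma-voom called 0, against 0.231%. At an unadjusted p under 0.05 edgeR counted these 2 of 9, against 9.25% of all tested genes. Groups did not overlap in the same 2, both higher in Plg KO, against 14.7% of all tested genes in either direction and 7.51% higher in Plg KO. The median log2 difference of the 9 genes was 0.03, against -0.00 over all tested genes, and of the 7 genes other than S100a8 and S100a9 it was 0.00, with 4 positive and 3 negative values.

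S100a8 and S100a9 had higher counts in all 3 Plg KO libraries than in any Plg WT library, but neither difference passed the test over all genes. S100a8 had 95.5, 229 and 49.8 CPM in Plg KO 1, 2 and 3, against 9.72, 22.2 and 28.9 CPM in Plg WT 1, 2 and 3. S100a9 had 109.7, 237 and 72.2 CPM in Plg KO, against 15.8, 27.3 and 34.2 CPM in Plg WT. Plg KO 2 was the highest library and Plg WT 1 the lowest for both genes, and the lowest Plg KO library, Plg KO 3, lay above the highest Plg WT library, Plg WT 3. S100a8 averaged 125 ± 93.3 CPM in Plg KO and 20.2 ± 9.72 CPM in Plg WT (SD, n = 3 each), a log2 difference of 2.63 ± 0.61 (SE) or 6.17-fold, and edgeR (quasi-likelihood F test, Benjamini-Hochberg over all genes) gave it an adjusted p of 0.199. S100a9 averaged 139.7 ± 86.4 CPM in Plg KO and 25.8 ± 9.28 CPM in Plg WT (SD, n = 3 each), a log2 difference of 2.44 ± 0.47 (SE) or 5.42-fold, and an edgeR adjusted p of 0.134. The 95% intervals of the 2 log2 differences, which are not adjusted over genes, ran from 1.19 to 4.06 for S100a8 and from 1.33 to 3.55 for S100a9. Among rises alone, ordered by log2 difference over the 17757 tested genes, S100a8 stood at place 30 and S100a9 at place 35, and by p, in either direction, they stood at places 289 and 150. In bulk tissue fewer cells of a type and less RNA per cell cannot be told apart, which bears on these values and all that follow.

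The spread within groups was wide for this pair. The SD of log2 CPM among the Plg KO libraries was 1.10 for S100a8 and 0.87 for S100a9, against a median of 0.20 over all tested genes, and 97.2% and 94.5% of genes had a smaller one. Among the Plg WT libraries it was 0.82 and 0.57, against a median of 0.21. Plg KO 2 weighed most on the size, since without it the log2 difference was 1.85 for S100a8 (adjusted p = 0.548 in edgeR) and 1.82 for S100a9 (adjusted p = 0.301 in edgeR). DESeq2 called both genes, with an adjusted p of 0.025 for S100a8 and 0.00466 for S100a9. The edgeR test without a filter on low counts also called both, with an adjusted p of 0.0314 for S100a8 and 0.0104 for S100a9, whereas limma-voom called neither. Over all 19 alternatives the adjusted p ran from 0.025 to 0.576 for S100a8 and from 0.00466 to 0.455 for S100a9.

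**Figure D2:**
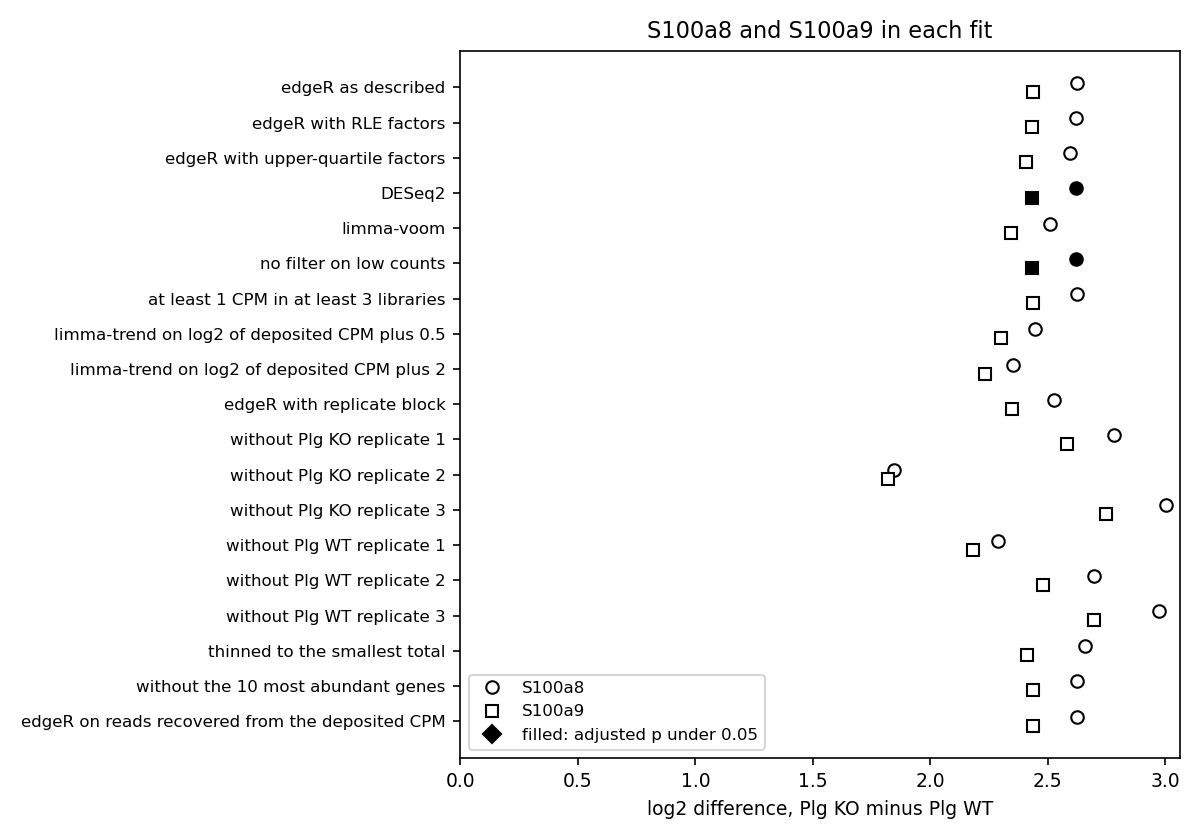
Log2 difference (Plg KO minus Plg WT) of S100a8 (circles) and S100a9 (squares) in each fit named on the left, with filled symbols for an adjusted p under 0.05. All values lie between 1.82 and 3.002, the lowest are those without Plg KO 2, and the filled symbols are those of DESeq2 and of the fit without a filter.

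The calprotectin subunits varied together from library to library, and the ratio between them overlapped between genotypes. S100a9 had 1.15, 1.03 and 1.45 counts for each count of S100a8 in Plg KO 1, 2 and 3, and 1.63, 1.23 and 1.19 in Plg WT 1, 2 and 3. The mean ratio was 1.21 ± 0.215 in Plg KO and 1.35 ± 0.244 in Plg WT (SD, n = 3 each). The ratio was lowest in Plg KO 2, where both genes were highest, and highest in Plg WT 1, where both were lowest. S100a8 and S100a9 together made up 10.1%, 20.4% and 6.87% of the counts of the 9 genes in Plg KO 1, 2 and 3, and 1.49%, 2.64% and 3.41% in Plg WT 1, 2 and 3. The other 7 genes summed to 1654 to 1820 CPM in Plg KO and 1689 to 1822 CPM in Plg WT.

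Among the epithelial members, S100a14 and S100a16 had nearly the same level in both genotypes. S100a14 (chromosome 3, 90526856 to 90528837, plus strand) had 566, 553 and 490.1 CPM in Plg KO 1, 2 and 3, against 497, 546 and 566 CPM in Plg WT 1, 2 and 3. Its log2 difference was 0.00 with a 95% interval of -0.24 to 0.24. S100a16 (90537254 to 90543151, plus strand) had 700.1, 718 and 663 CPM in Plg KO, against 713, 770.5 and 724 CPM in Plg WT. Its log2 difference was -0.09, with a 95% interval of -0.30 to 0.13. In both genes the groups overlapped.

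S100a7a and S100a11 had slightly higher means in Plg KO, without passing the test. S100a7a (90654017 to 90658669, plus strand) had 139, 142 and 128 CPM in Plg KO, against 108, 135 and 128 CPM in Plg WT, where Plg WT 1 was the lowest library. Its log2 difference was 0.14 ± 0.11 (SE), with a 95% interval of -0.11 to 0.40 and an adjusted p of 0.762 in edgeR. S100a11, also called calgizzarin and found at 93520488 to 93526287 on the plus strand, had 169, 172 and 139 CPM in Plg KO, against 137, 143 and 133 CPM in Plg WT. Plg KO 1 and 2 lay above all Plg WT libraries and Plg KO 3 among them. The log2 difference of S100a11 was 0.22 ± 0.11 (SE), with a 95% interval of -0.03 to 0.47 and an adjusted p of 0.603 in edgeR.

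S100a6, a calcium sensor of dividing and stromal cells, lay at 90612882 to 90624181 on the plus strand and was the steadiest of the 9. It had 238, 223 and 228 CPM in Plg KO, against 227.5, 221 and 228 CPM in Plg WT, so the highest library exceeded the lowest by 1.08-fold. The SD of its log2 CPM within Plg WT was smaller than in all but 1.81% of tested genes, and its log2 difference was 0.03 with a 95% interval of -0.16 to 0.21.

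S100a4 and S100a3 were measured with far fewer reads. S100a4 (90603771 to 90606045, plus strand) had 131, 59 and 94 counts in Plg KO, against 98, 102 and 125 counts in Plg WT. Its log2 difference was -0.28 ± 0.25 (SE), with a 95% interval of -0.87 to 0.31, and the groups overlapped. S100a3 (90560578 to 90602702, plus strand) had 143, 112 and 116 counts in Plg KO, against 148, 120 and 126 counts in Plg WT, with a log2 difference of -0.11 and a 95% interval of -0.53 to 0.31. The low level of S100a4 is uncertain as a level, because 302 of its 584 exon bases (51.7%) are shared with the gene model Gm42674 on the same strand. Gm42674, whose 446 exon bases all belong to S100a4 or S100a3 as well, had 0 counts in every library. The sources used here do not say how reads shared between genes were counted, and the part of the overlap in the level of S100a4 was not tested. With all its counts set against its 282 unshared bases, S100a4 averaged 12.2 CPM per kb in Plg WT, below the mean of S100a8. Of 10 hair and papilla keratins, some of which accompany S100a3 in hair, 4 passed the filter and edgeR called 0 (0 at an unadjusted p under 0.05). The shares over all tested genes were 0.237% called by edgeR and 9.25% at an unadjusted p under 0.05. Krt84 was the most abundant, with 12.8, 6.72 and 8.18 CPM in Plg KO, against 8.08, 14.1 and 16.3 CPM in Plg WT. Krt36 had 1.90 to 2.80 CPM in Plg KO and 2.51 to 2.95 CPM in Plg WT, whereas Krt81 had 0 counts and Krt33b 1 count over all libraries.

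Along chromosome 3 the calprotectin genes stand beside members with differences near 0. The S100 cluster from S100a1 to S100a9 spans 185 kb and holds 8 of the 9 members, and S100a11 lies 2.83 Mb further along. S100a7a ends 10.3 kb before S100a8, and S100a8 ends 22.6 kb before S100a9. The log2 differences in this order were 0.03 for S100a6, 0.14 for S100a7a, 2.63 for S100a8 and 2.44 for S100a9. The 95% intervals of S100a6 and S100a7a ended below the intervals of S100a8 and S100a9, and the difference between genes was not itself tested.

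**Figure D3:**
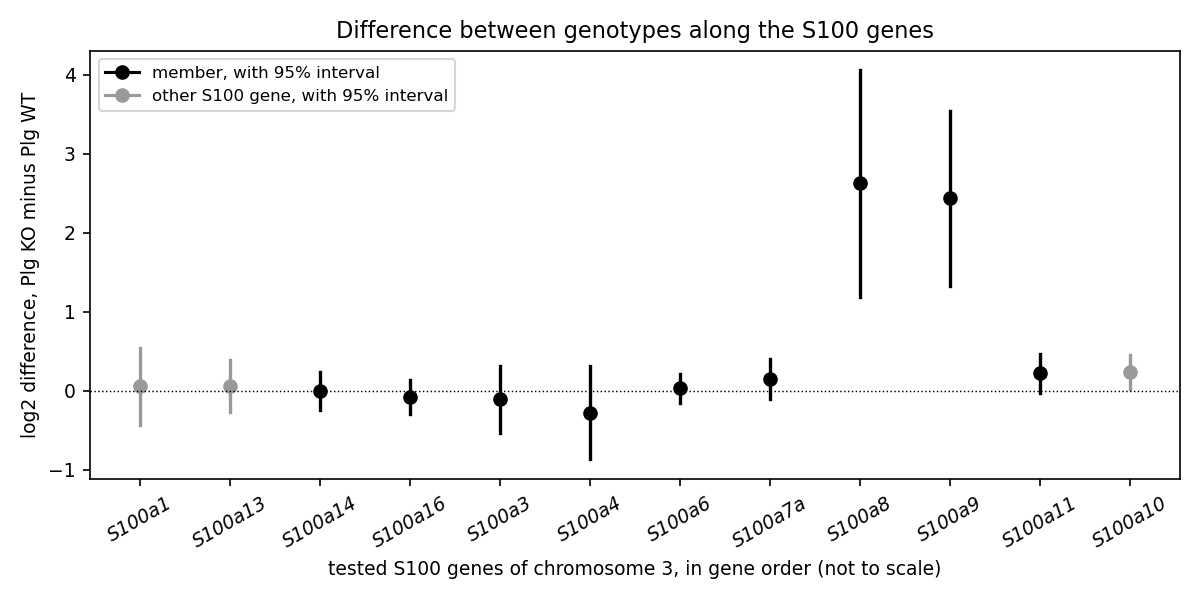
Log2 difference (Plg KO minus Plg WT) with its 95% interval for the tested S100 genes of chromosome 3, in gene order and not to scale, with members in black and other S100 genes in grey. S100a8 and S100a9 stand at 2.63 and 2.44, and the values of all other genes shown lie between -0.28 and 0.23.

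Of the 10 further entries with an S100 symbol, 6 passed the filter and 0 were called by edgeR (DESeq2 and limma-voom also 0, with 1 at an unadjusted p under 0.05 in edgeR). Of all the genes each tool tested, edgeR called 0.237%, DESeq2 2.04% and limma-voom 0.231%, and 9.25% had an unadjusted p under 0.05 in edgeR. The 1 S100 entry was S100a10, the partner of annexin A2, with 205, 207 and 224 CPM in Plg KO, against 189.7, 166 and 186 CPM in Plg WT. All Plg KO libraries of S100a10 lay above the Plg WT ones, by a log2 difference of 0.23 ± 0.09 (SE) and an adjusted p of 0.490 in edgeR. Groups did not overlap in 14.7% of all tested genes in either direction, and in 7.51% with Plg KO higher. S100a1, a calcium sensor of muscle, had 89.8, 131 and 154 CPM in Plg KO and 143.5, 107 and 110.3 CPM in Plg WT, and was lowest in Plg KO 1, the library with the least muscle transcript, whose part in this was not tested. S100a2, S100a5, S100z and the pseudogene S100a11-ps stayed under the filter, with at most 5 counts in any library.

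Genes that receive or bind S100 proteins were not called by edgeR, which called 0.237% of all tested genes. DESeq2 called 2.04% of the genes it tested, and 9.25% of genes had an unadjusted p under 0.05 in edgeR. Of 10 receptor genes and cofactors edgeR called 0 (DESeq2 called 1 and limma-voom 0, with 2 at an unadjusted p under 0.05 in edgeR), and the median log2 difference was 0.25, against -0.00 over all tested genes. Cd14, the co-receptor of Tlr4, had 14.01, 33.2 and 21.2 CPM in Plg KO, against 12.2, 7.43 and 5.96 CPM in Plg WT, a log2 difference of 1.42 ± 0.37 (SE) and an adjusted p of 0.251 in edgeR and 0.00494 in DESeq2. Tlr4 had 4.40, 4.89 and 4.48 CPM in Plg KO, against 3.22, 3.29 and 2.63 CPM in Plg WT. The groups did not overlap in either gene, as in 14.7% of all tested genes. Ager, the receptor for advanced glycation end products, had 1.79 to 2.92 CPM in Plg KO and 1.83 to 2.84 CPM in Plg WT, with a log2 difference of 0.00.

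Of 12 intracellular partners edgeR called 0 (DESeq2 called 1 and limma-voom 0, with 1 at an unadjusted p under 0.05 in edgeR), with a median of -0.03. Over all tested genes the shares were 0.237% called by edgeR, 2.04% by DESeq2, and 9.25% at an unadjusted p under 0.05 in edgeR. The 1 partner was Anxa1, annexin A1, which binds S100a11 and restrains neutrophil entry. Anxa1 had 2874, 3667 and 3160 CPM in Plg KO, against 2198, 1954 and 2024 CPM in Plg WT, a log2 difference of 0.65 ± 0.13 (SE) and an adjusted p of 0.147 in edgeR and 7.18e-04 in DESeq2. Anxa2, the partner of S100a10, had a log2 difference of 0.14 ± 0.11 (SE) and overlapping groups. Cacybp, the protein that binds calcyclin (S100a6), had 116 to 131 CPM in Plg KO and 114.5 to 132.5 CPM in Plg WT.

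Of 7 transcription factors known to act on S100a8 and S100a9, 6 were tested and edgeR called 0 (DESeq2 called 1 and limma-voom 0, with 2 at an unadjusted p under 0.05 in edgeR). Over all tested genes the shares were 0.237% called by edgeR, 2.04% by DESeq2, and 9.25% at an unadjusted p under 0.05 in edgeR. Groups did not overlap in 14.7% of all tested genes. Hif1a, the hypoxia-inducible factor, had 73.0, 94.5 and 56.8 CPM in Plg KO, against 38.9, 41.9 and 49.5 CPM in Plg WT, a log2 difference of 0.78 ± 0.19 (SE) and an adjusted p of 0.219 in edgeR and 0.0199 in DESeq2. Its libraries stood in the same order as those of S100a8. Spi1, the myeloid factor PU.1, had 2.10 to 2.67 CPM in Plg KO and 1.37 to 1.75 CPM in Plg WT, without overlap. Cebpb, a C/EBP factor of myeloid and epithelial cells, had 1.65 to 1.84 CPM in Plg KO and 1.95 to 2.54 CPM in Plg WT, also without overlap and lower in Plg KO. Cebpe, a factor of developing granulocytes, had 1 count in all 6 libraries.

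All 13 tested neutrophil markers had a positive log2 difference, with a median of 2.43, but the groups did not separate in all of them. Of all 17757 tested genes 8733 had a positive difference, and the list was chosen with earlier results of these data known. Retnlg, Fpr1, Clec4d and Trem1 had few counts in most Plg WT libraries, such as 5, 9 and 8 for Retnlg. They passed the filter through their Plg KO libraries, which favours a rise and separate groups. Of 15 neutrophil markers 13 passed the filter, edgeR called 1 higher, Mmp9, which encodes gelatinase B, and 9 had an unadjusted p under 0.05. In these 9 the groups did not overlap, and in the other 4 tested, Il1r2, Ltf, Ngp and Camp, they did. Of all tested genes, edgeR called 0.237%, 9.25% had an unadjusted p under 0.05, and groups did not overlap in 14.7%. Mmp9 had 65.9, 49.2 and 40.6 CPM in Plg KO, against 10.6, 7.25 and 4.97 CPM in Plg WT, with an adjusted p of 0.0245 in edgeR. The edgeR call of Mmp9 was lost when Plg KO 2 (adjusted p = 0.117), Plg KO 3 (0.0697), Plg WT 2 (0.165) or Plg WT 3 (0.0831) was left out, and over all alternatives its adjusted p ran from 5.04e-18, in DESeq2, to 0.165. Hdc had 13.5, 29.6 and 25.1 CPM in Plg KO, against 4.45, 5.21 and 5.99 CPM in Plg WT, with an adjusted p of 0.0504 in edgeR. Csf3r, the receptor of the neutrophil growth factor G-CSF, had 4.32, 8.04 and 6.30 CPM in Plg KO, against 0.792, 0.428 and 1.57 CPM in Plg WT. Retnlg, a marker of mature neutrophils, had 1.30, 7.07 and 3.47 CPM in Plg KO, against 0.137, 0.321 and 0.256 CPM in Plg WT. For Hdc, Csf3r and Retnlg, as for S100a8 and S100a9, Plg KO 2 was the highest library, and the groups did not overlap. Ly6g, the defining surface marker of mouse neutrophils, had 1.79 CPM in Plg KO 2 and 0.476 in Plg KO 3, was at 0 in Plg KO 1, Plg WT 1 and Plg WT 3, and had 0.0357 CPM in Plg WT 2. The markers did not all follow the order of S100a8, since Mmp9 was highest in Plg KO 1. Camp, a granule peptide of developing neutrophils, had 0.0540, 0.117 and 1.82 CPM in Plg KO, against 0.682, 0.464 and 0.416 CPM in Plg WT. Ngp, another granule protein, had 0, 1.17 and 4.43 CPM in Plg KO, against 0.901, 0.107 and 0.288 CPM in Plg WT. Il1r2, the decoy receptor of interleukin-1, had 13.4 to 15.03 CPM in Plg KO and 9.09 to 13.8 CPM in Plg WT.

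All 15 markers together summed to 295, 410.4 and 403 CPM in Plg KO 1, 2 and 3, and to 286, 70.7 and 88.5 CPM in Plg WT 1, 2 and 3. Most of these sums was Ltf, lactoferrin, which salivary glands also make and which had 256 CPM in Plg WT 1. Without Ltf, a choice made after its values were seen, the sums were 107, 131 and 107 CPM in Plg KO, against 29.97, 29.5 and 26.5 CPM in Plg WT. Mmp9 was the largest part in each Plg KO library. In Plg WT 2 and 3 the largest part was Il1r2, at 13.8 and 9.13 CPM, so the make-up of the sum differed between libraries. For each CPM of this sum there were 1.91, 3.56 and 1.14 CPM of S100a8 and S100a9 together in Plg KO, and 0.853, 1.68 and 2.38 CPM in Plg WT, so the groups overlapped. For each CPM of Csf3r there were 47.5, 58.0 and 19.4 CPM of the pair in Plg KO, and 32.3, 115 and 40.2 CPM in Plg WT, again with overlap. The part of neutrophil transcripts in the S100a8 and S100a9 differences was not tested.

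**Figure D4:**
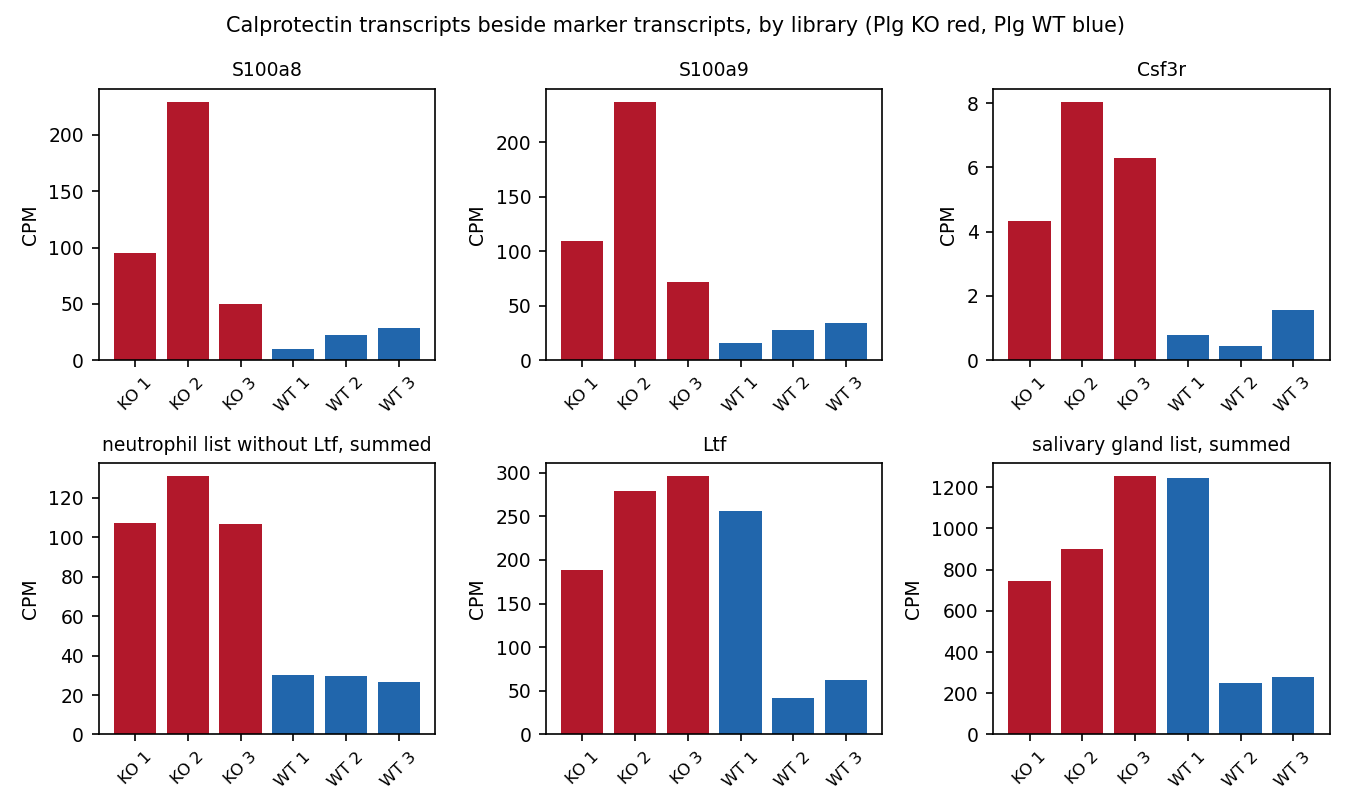
CPM in each library (Plg KO red, Plg WT blue; bars start at 0) of S100a8, S100a9, Csf3r, the summed neutrophil markers without Ltf, Ltf alone and the summed salivary gland markers. The first 4 panels are higher in every red bar than in any blue one, whereas Ltf and the salivary sum are also high in Plg WT 1.

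The summed markers of monocytes and macrophages, of stressed keratinocytes and of fibroblasts, which can all make S100 proteins, overlapped between the groups. The counts below stand beside 0.237% of all tested genes called by edgeR and 9.25% at an unadjusted p under 0.05. Of 7 tested monocyte and macrophage markers edgeR called 0 (0 at an unadjusted p under 0.05), and their sums were 112 to 193 CPM in Plg KO and 108 to 138 CPM in Plg WT. Most of each sum was Lyz2, with 80.3 to 154.6 CPM in Plg KO and 79.4 to 106.9 CPM in Plg WT. Of 7 wound and stress keratinocyte markers edgeR called 0 (1 at an unadjusted p under 0.05), with sums of 11150 to 14800 CPM in Plg KO and 12020 to 14990 CPM in Plg WT. Their keratins Krt6a, Krt6b, Krt16 and Krt17 overlapped between groups, and Sprr2d, a cornified envelope protein, had 441 to 571 CPM in Plg KO and 266 to 273 CPM in Plg WT, with an adjusted p of 0.0538 in edgeR. Of 6 fibroblast markers edgeR called 0 (3 at an unadjusted p under 0.05), and all 6 had a negative log2 difference with a median of -0.47. Their sums were 1387 to 2552 CPM in Plg KO and 2175 to 3678 CPM in Plg WT. The part of fibroblast transcripts in the S100a4 values was not tested. The summed adipocyte markers did separate the groups, with sums of 4.66 to 5.24 CPM in Plg KO and 13.1 to 31.1 CPM in Plg WT. All 3 tested adipocyte markers were lower in Plg KO at an unadjusted p under 0.05, and edgeR called 1, Cidec, a lipid droplet protein. The groups did not overlap in Adipoq and Cidec, as in 14.7% of all tested genes, but overlapped in Plin1. Cidec was the largest part of the adipocyte sum in every library. Cidec had 2.56, 2.64 and 3.14 CPM in Plg KO, against 13.7, 21.7 and 9.71 CPM in Plg WT, with an adjusted p of 0.0363 in edgeR. The edgeR call of Cidec held without Plg WT 1 and was lost without any other single library (adjusted p 0.0556 to 0.2), and over all alternatives its adjusted p ran from 3.63e-12, in DESeq2, to 0.246. The part of adipose transcripts in the S100 values was not tested.

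Across the 6 libraries S100a8 and S100a9 had a Pearson correlation of log2 CPM of 0.995, which includes the difference between groups. They were not proportional, since the highest library exceeded the lowest by 23.6-fold for S100a8 and by 15.0-fold for S100a9. By the same measure, over 13184 named genes that averaged 1 CPM or more, the closest to S100a8 were Rexo5 (0.992), Flrt3 (0.987), Csn1s1 (0.986), Hif1a (0.985) and Psmd1 (0.982). The closest to S100a9 were Adam8 (0.991), Sh2d5, Flrt3, Hif1a and Sptlc2. Among so many genes and so few libraries high values are common, and they are given as a description of likeness. Csn1s1, a casein gene, had 3.46, 6.06 and 1.34 CPM in Plg KO and 0.137, 0.571 and 0.993 CPM in Plg WT, the same order of libraries as S100a8. Adam8, a membrane protease of leukocytes, had 42.7, 58.9 and 40.8 CPM in Plg KO and 20.1, 23.4 and 27.0 CPM in Plg WT.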

How the data were processed

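Per the labels' protocols, total RNA of gingiva was made into Illumina Nextera XT libraries, which do not mark strand, and read as paired ends. Tools named without a role per the submitters' processing notes are DESeq2, edgeR, limma and STAR 2.5.2a, with the builds GRCm38.p3 and mm10. The deposited tables hold raw counts for 48709 genes and CPM values, named by the authors as filtered and TMM-scaled, for 21948 genes. The deposited CPM gave whole reads for 100% of values (tolerance 0.01 read), and these equalled the raw counts for 100% of values. An edgeR fit on these reads, an alternative chosen after seeing the data, called 34 genes higher and 8 lower. As the reads are the same, it is no separate check of the reported fit. A further 22 entries that name no gene took at most 3.55e-05% of a library and were left out. Library pairs differed by more than sampling noise (chi-square per degree of freedom 21.4 to 111.4).

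The 3 Plg KO and 3 Plg WT libraries were compared with edgeR 4.0.16 in R 4.3.3 (quasi-likelihood F test on raw counts, TMM, filterByExpr, 17757 genes, Benjamini-Hochberg adjustment over all of them, calls at an adjusted p under 0.05, genotype only). All 9 members passed the filter. CPM in the text are TMM-normalized counts of this fit, and SE is the log2 difference over the root of F. Alternatives used DESeq2 1.42.0 and limma 3.58.1, other filters and factors, and left-out libraries. The scripts were tested on simulated data. The members and gene lists were chosen with earlier results of these data known. The text names all members and, from each list, genes called, with the smallest p, at 0 or whose level stands beside a result. The likeness rule named the 5 genes closest to S100a8 and to S100a9. Of the list symbols 1 was not matched. Gene names were taken from the deposited CPM table or GENCODE M21, and positions and exon lengths from GENCODE M21 on GRCm38.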

Additional observations from a re-analysis of the deposited data

How the results depend on the processing

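The calls of S100a8 and S100a9 depended on the tool and the filter, and their direction did not in the 19 alternatives run. Among these, the fit on reads recovered from the deposited CPM and the cut-off of 0.10 repeat the log2 differences of the reported fit. Of the 9 S100 genes, 2 were called higher by DESeq2 and 2 by edgeR without a filter on low counts, against 0 in the fit reported. Of the other S100 and partner genes, 3 were called higher by DESeq2 (Anxa1, Cd14 and Hif1a) and 1 without a filter (Anxa1), against 0. Over all genes the reported 34 higher and 8 lower calls became 260 and 132 with DESeq2, 122 and 40 without a filter, and 95 and 26 at an adjusted p under 0.10. Leaving out 1 library gave 1 to 184 higher and 1 to 35 lower calls over all genes (highest without Plg WT 1; 32 higher and 6 lower when Plg KO 1 was left out, and at most 2 each for the other libraries), and a log2 difference of 1.85 to 3.002 for S100a8 and 1.82 to 2.75 for S100a9, with 0 members called each time. Leaving out 1 library moved the mean S100a9 to S100a8 ratio between 1.09 and 1.30 in Plg KO and between 1.21 and 1.43 in Plg WT. With the replicate number as a block, 2 genes were called higher and 0 lower, and S100a8 had a log2 difference of 2.53 (adjusted p = 0.576). Deviations of same-numbered libraries from their group means correlated at -0.255, -0.013 and -0.225, against -0.101 to 0.288 for the other pairs. These values show no pairing by number but cannot exclude one, as salivary gland and muscle transcripts also varied between libraries. S100a14, at 0.00, had both signs over the alternatives (7 positive, 12 negative), and S100a6 was negative without Plg KO 1. The causes of these changes were not tested. Depth limits S100a3 and S100a4 most, at 59 to 148 counts per library.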
